A study of Mus musculus with 27 samples.

Results

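The genes described here are 10 genes listed for the non-blood cells of bone marrow, with every probe of each gene taken as a member. They were listed by role: the niche factors Cxcl12, Kitl and Vcam1 with the stromal receptor Lepr, the bone matrix genes Spp1, Bglap2, Sparc and Mgp, and the fat genes Adipoq and Cfd. The platform annotation pairs 20 of the 45281 probes on the array with 8 of these genes, out of 19057 named genes. Cfd and Spp1 were not analysed here, because no probe carries either symbol in that annotation. In marrow 12 of the 20 probes, covering 7 genes, passed the filter for detectable signal (detection p under 0.05 on at least 3 of the 9 marrow arrays), and all 3 Kitl probes failed it.

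The members were measured on Illumina BeadChips in 27 samples of total RNA: liver, brain and bone marrow of C57BL/6 mice, each with 3 wild-type, 3 heterozygous (Mysm1+/tm1a) and 3 homozygous (Mysm1tma1/tm1a) samples. The allele, in full Mysm1tm1a(KOMP)WTSI, is a knockout-first allele of Mysm1, a histone H2A deubiquitinase required for normal blood formation in mice. As a germline allele it is carried by stroma and blood cells alike. The labels state no age. RNA came from frozen whole tissue, so the members were read within the RNA of all marrow cells. Which cells made their transcripts, stromal or blood, was not tested.

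Blood stem cells and early B cells are held in the marrow by perivascular stromal cells that bear the leptin receptor, secrete the chemokine CXCL12 and the growth factor KITL, and display the adhesion molecule VCAM1. Some of these cells become osteoblasts, which lay down the bone matrix proteins osteocalcin (encoded by Bglap and Bglap2), osteonectin (Sparc) and osteopontin (Spp1), and others become marrow fat cells, which release adiponectin (Adipoq) and adipsin (Cfd). Matrix Gla protein (Mgp) binds calcium and restrains mineralisation in cartilage and vessel walls.

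The marrow groups differed in ways that bear on every value below. The mean raw signal of an array was 136 to 228 in wild type, 99.3 to 135 in heterozygotes and 92.1 to 137 on the arrays labelled homozygous, and 28.6% to 35.4%, 23.8% to 27.6% and 20.0% to 31.0% of all probes were detected. Wild-type and heterozygous marrow shared 1 BeadChip and the arrays labelled homozygous lay alone on another, so for them BeadChip and genotype cannot be told apart. The Mysm1 probe ILMN_3119954 fell in homozygous liver (limma adjusted p = 9.6e-05) but did not separate the marrow groups: the arrays read 6.18, 6.29 and 6.40 (log2 intensity) in wild type, 6.35, 6.08 and 6.35 in heterozygotes and 6.48, 4.88 and 6.95 where the label is homozygous. Heterozygous marrow showed no fall either, with a mean of 6.26 against 6.29 in wild type, while heterozygous liver read 6.55 against 7.49. This probe therefore bears out neither label in marrow. The marrow arrays with the homozygous label are called "labelled homozygous" throughout. Their second replicate also carried hepatocyte RNA: the apolipoprotein gene Apoa1 read 10.19 there and at most 4.93 on the other marrow arrays, and 10 of 14 hepatocyte markers were detected against 1 to 5 elsewhere, although albumin (Alb) was detected on none. Calls between the labelled homozygous and wild-type groups are given with and without that array, and 31.9% of all probes were called once it was left out, against 1.13% with it. The array left out is also the one with the low Mysm1 reading of 4.88. The arrays then kept under the homozygous label read Mysm1 above all wild-type arrays (0.43 ± 0.21, limma adjusted p = 0.149). Calls made without that array therefore compare wild type with arrays that show no loss of Mysm1 signal. Because tissue RNA was pooled over cell types, fewer cells of a type and less RNA per cell cannot be told apart in any of these values.

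Cxcl12, the chemokine that retains blood stem cells and B-cell precursors in the marrow, stood higher on the arrays labelled homozygous than in either other group for 2 of its 3 well detected probes after quantile normalisation, though not against wild type after 75th percentile scaling. Its promoter is printed here because 1 of these probes gave the only member call between marrow groups with all arrays, under quantile normalisation. The 250 bases before the start lie at chr6:117168285-117168534 on the plus strand (RefSeq, GRCm38.p6), with the letters GGGCGG or their reverse complement, the GC box bound by SP1-type factors, in capitals.
Cxcl12: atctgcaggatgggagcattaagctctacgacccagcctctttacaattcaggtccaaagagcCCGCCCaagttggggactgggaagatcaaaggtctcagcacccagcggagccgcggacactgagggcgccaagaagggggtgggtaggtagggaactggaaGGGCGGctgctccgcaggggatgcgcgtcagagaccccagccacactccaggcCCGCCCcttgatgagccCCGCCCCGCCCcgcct
This window held 5 such boxes, and 32.7% of all 32851 promoter windows of the same length held at least 1. It held none of TATAAA (the TATA box), CCAAT or ACCACA (a RUNX core), each searched on both strands. The 2 boxes nearest the start share 1 base.

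The probe ILMN_2737302 read 7.02, 7.00 and 6.92 in wild-type marrow, 6.26, 6.34 and 6.78 in heterozygotes and 8.40, 7.94 and 7.71 on the arrays labelled homozygous. The 3 groups did not overlap, with heterozygous arrays lowest and labelled homozygous arrays highest. The probe rose 2.94-fold between the heterozygous and the labelled homozygous group (1.56 ± 0.24, log2 difference ± SE, limma adjusted p = 0.0175), the 1 difference among the member probes that passed the test over all probes with every array in. No member probe passed in this comparison under 75th percentile scaling, or without heterozygous replicate 1, heterozygous replicate 2 or labelled homozygous replicate 1. Against wild type the difference was 1.03 ± 0.24 (limma adjusted p = 0.0628), and it turned to -0.21 when arrays were scaled to a common 75th percentile in place of quantile normalisation. That percentile of all probes falls among undetected probes on heterozygous replicate 2 and labelled homozygous replicates 1 and 3, where 23.8%, 23.4% and 20.0% of probes were detected. In wild type, with 28.6% to 35.4% detected, it falls among detected probes. This limits every value under that scaling.

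A second probe, ILMN_3158250, read 6.53, 6.48 and 6.83 in wild type, 6.78, 6.17 and 6.29 in heterozygotes and 8.27, 7.30 and 7.82 under the homozygous label. Wild type and heterozygotes overlapped and the labelled homozygous arrays lay above both. The differences were 1.19 ± 0.28 against wild type (limma adjusted p = 0.0642), or -0.02 under 75th percentile scaling, and 1.39 ± 0.28 against heterozygotes (limma adjusted p = 0.0539), neither past the threshold of 0.05. With the array that carried hepatocyte RNA left out, both probes rose against wild type after quantile normalisation, by 1.07 ± 0.25 and 1.44 ± 0.25 (limma adjusted p = 0.0122 and 0.00355), but stood at -0.61 and -0.22 under 75th percentile scaling (limma adjusted p = 0.232 and 0.557). Against heterozygotes they rose by 1.59 ± 0.25 and 1.64 ± 0.25 (limma adjusted p = 0.007 and 0.00588) without that array, and 75th percentile scaling kept the sign but not the call, at 0.80 and 0.85 (limma adjusted p = 0.401 and 0.301).

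The brightest Cxcl12 probe, ILMN_2658908, gave a flatter picture. It read 9.11, 9.56 and 8.85 in wild type, 8.98, 9.79 and 8.98 in heterozygotes and 10.01, 9.60 and 9.39 on the arrays labelled homozygous, so that all groups overlapped. The difference between the labelled homozygous and wild-type means was 0.49 ± 0.29 (limma adjusted p = 0.3), 0.53 ± 0.32 without the array that carried hepatocyte RNA (limma adjusted p = 0.231), and -0.88 under 75th percentile scaling. The fourth probe, ILMN_2746295, was detected on 3 of 9 arrays, none of them wild type, and ranged from 4.43 to 5.60. The fifth was detected on none. The probes of Cxcl12 thus disagreed in the size of the difference, and no annotation used here says which transcripts they read.

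Before normalisation the groups were less separate. ILMN_3158250 read 226, 276 and 157 raw units in wild type, 114, 91.9 and 124 in heterozygotes and 173, 224 and 120 on the arrays labelled homozygous, so the raw values of the first and last group overlapped. Relative to the median of all 15087 tested probes, which lay at -0.16 (quantile), -0.54 (75th percentile of all probes) and 0.81 (75th percentile of probes detected on every array), the 2 Cxcl12 probes stood at 1.19 and 1.34, at 0.33 and 0.52, and at 0.33 and 0.52. In each scaling these 2 were above the median probe. The brightest Cxcl12 probe, ILMN_2658908, was above it after quantile normalisation (0.49) but below it under 75th percentile scaling (-0.88). It was also below it with the percentile over probes detected on every array.

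**Figure D1:**
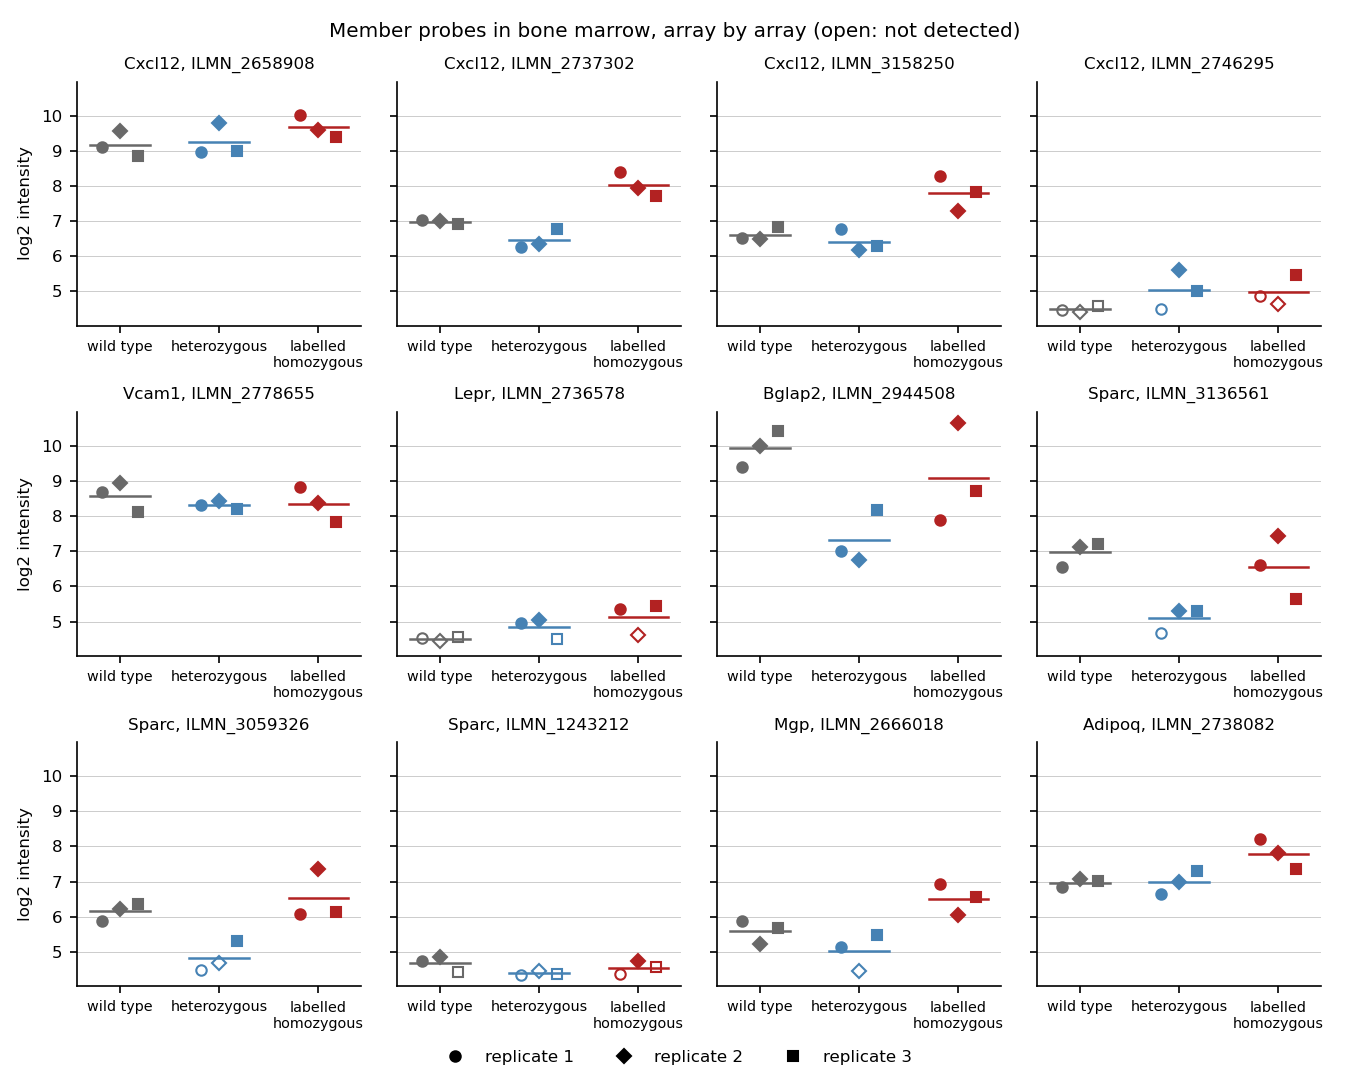
Log2 intensity of the 12 tested member probes on each of the 9 marrow arrays (y axis), by genotype label (x axis); symbols mark replicates, open symbols are arrays on which the probe was not detected, and bars are means of 3 arrays. Cxcl12 ILMN_2737302 separates all 3 groups, and Bglap2 and 2 Sparc probes are below all wild-type arrays on all heterozygous arrays.

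The other niche genes carried less signal. Kitl, the ligand of the KIT receptor on blood stem cells, stayed between 4.21 and 4.90 on its 3 probes, with 1 detection among 27 probe readings (3 probes on 9 arrays), so its level was not measurable in any marrow group. Vcam1, the adhesion partner of the integrin formed by Itga4 and Itgb1, was bright on 1 of 4 probes. That probe, ILMN_2778655, read 8.68, 8.95 and 8.10 in wild type, 8.31, 8.42 and 8.21 in heterozygotes and 8.82, 8.38 and 7.84 on the arrays labelled homozygous. All groups overlapped, and the difference between the labelled homozygous and wild-type groups was -0.23 ± 0.29 (limma adjusted p = 0.616), or -0.25 ± 0.32 without the array that carried hepatocyte RNA (limma adjusted p = 0.564).

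Lepr, the receptor that marks perivascular stroma, was near background on both probes. ILMN_2600710 was detected on no marrow array, and ILMN_2736578 read 4.52, 4.44 and 4.57 in wild type, where no array detected it, 4.97, 5.04 and 4.51 in heterozygotes (2 of 3 detected) and 5.35, 4.61 and 5.45 on the arrays labelled homozygous (2 of 3 detected). The labelled homozygous arrays lay above all wild-type arrays, at least 1.39-fold in the mean, a lower bound because each wild-type array was set to its dimmest detected signal or to the probe's signal, whichever was larger (limma adjusted p = 0.16). Without the array that carried hepatocyte RNA Lepr rose by 0.88 ± 0.21 (limma adjusted p = 0.0135), and by 0.73 under 75th percentile scaling (limma adjusted p = 0.0351).

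Bglap2 and Sparc, bone matrix genes, had their lowest mean in heterozygous marrow and were uneven under the homozygous label. Bglap2, 1 of the osteocalcin genes and made by mature osteoblasts, read 9.41, 10.01 and 10.42 in wild type, 7.01, 6.75 and 8.17 in heterozygotes and 7.89, 10.66 and 8.71 on the arrays labelled homozygous. Every heterozygous array was below every wild-type array, while the labelled homozygous arrays ran from below the wild-type range to above it. The array at 10.66 was the one with hepatocyte RNA. The heterozygous group lay 6.21-fold below wild type (-2.63 ± 0.62), which did not pass the test over all probes (limma adjusted p = 0.473).

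For the labelled homozygous arrays the difference from wild type was -0.86 ± 0.62 with all arrays (limma adjusted p = 0.383). Without the array that carried hepatocyte RNA Bglap2 fell 3.12-fold (-1.64 ± 0.44, limma adjusted p = 0.0204), and it fell by 3.52 on the log2 scale under 75th percentile scaling (limma adjusted p = 0.00271). Bglap2 and its neighbours Bglap and Bglap3 are near-identical copies, and whether the probe reads 1 of them alone was not tested.

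Sparc, a collagen-binding matrix protein, also had its lowest mean in heterozygotes on its 2 brighter probes, while the labelled homozygous mean lay below wild type on 1 of them and above it on the other. Its promoter window, shown as that of the bone matrix member with the most probes, lies at chr11:55420081-55420330 on the minus strand (GRCm38.p6, RefSeq), printed 5′ to 3′ along the gene.
Sparc: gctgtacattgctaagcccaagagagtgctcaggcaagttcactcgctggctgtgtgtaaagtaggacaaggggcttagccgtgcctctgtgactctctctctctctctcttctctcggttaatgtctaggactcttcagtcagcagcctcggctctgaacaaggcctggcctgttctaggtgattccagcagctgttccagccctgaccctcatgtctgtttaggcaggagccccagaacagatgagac
None of the 4 motifs named above was in this window, so it has no capitals.

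ILMN_3136561 read 6.56, 7.12 and 7.22 in wild type, 4.69, 5.30 and 5.30 in heterozygotes and 6.61, 7.44 and 5.64 on the arrays labelled homozygous. ILMN_3059326 read 5.86, 6.23 and 6.37, then 4.48, 4.68 and 5.32, then 6.09, 7.36 and 6.12 in the same order. On both probes all heterozygous arrays lay below all others. The heterozygous values were 3.66-fold (-1.87 ± 0.40) and 2.50-fold (-1.32 ± 0.36) below wild type, each with limma adjusted p = 0.473. Without the array that carried hepatocyte RNA, ILMN_3059326 rose between heterozygotes and the labelled homozygous group by 1.26 ± 0.27 (limma adjusted p = 0.0176), though 75th percentile scaling gave 0.50 (limma adjusted p = 0.455), and the highest Sparc reading on either probe was on the array left out. The probe ILMN_1243212 was detected on 3 arrays and spanned 4.35 to 4.86.

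Mgp read 5.87, 5.22 and 5.68 in wild type, 5.13, 4.44 and 5.48 in heterozygotes and 6.93, 6.06 and 6.55 on the arrays labelled homozygous. Wild type and heterozygotes overlapped, and the labelled homozygous arrays were above both. The differences of 0.92 ± 0.32 from wild type (limma adjusted p = 0.115) and 1.49 ± 0.32 from heterozygotes (limma adjusted p = 0.068) did not pass. Without the array that carried hepatocyte RNA, Mgp rose 2.21-fold and 3.27-fold after quantile normalisation (limma adjusted p = 0.0226 and 0.0109). Under 75th percentile scaling its difference from wild type was 0.11 with every array in and -0.00229 without that array.

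Adipoq, the hormone gene of mature fat cells, was the 1 fat gene with a probe. Its promoter window lies at chr16:23146286-23146535 on the plus strand (GRCm38.p6, RefSeq), and it is shown because Adipoq and Cxcl12 stood high on the same arrays. Capitals mark CCAAT or its reverse complement, the box bound by NF-Y.
Adipoq: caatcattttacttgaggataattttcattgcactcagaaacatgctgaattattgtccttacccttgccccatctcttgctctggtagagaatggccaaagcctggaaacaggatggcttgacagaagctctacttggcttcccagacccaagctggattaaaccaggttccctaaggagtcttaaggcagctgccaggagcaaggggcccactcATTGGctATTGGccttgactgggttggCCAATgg
It held 3 CCAAT boxes, against at least 1 in 33.85% of all windows, and no match to the other motifs searched. It held 0 CG pairs, against 14 in the Cxcl12 window and 4 in the Sparc window.

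Adipoq read 6.84, 7.07 and 7.01 in wild type, 6.64, 7.00 and 7.29 in heterozygotes and 8.20, 7.82 and 7.34 on the arrays labelled homozygous. The wild-type and heterozygous means differed by 0.00 ± 0.26, and the lowest labelled homozygous array was just above the highest heterozygous one. The difference from wild type was 0.82 ± 0.26 (1.76-fold, limma adjusted p = 0.0996), or 0.80 ± 0.29 (limma adjusted p = 0.056) without the array that carried hepatocyte RNA, and it turned to -0.38 under 75th percentile scaling, which is 0.16 above the median probe.

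Counted over all member probes, the comparison of labelled homozygous with wild-type marrow called 0 of 12, against 1.13% of the 15087 probes tested (171 probes, limma with Benjamini-Hochberg adjustment), with 5 member probes and 26.6% of all probes at an unadjusted p under 0.05. The groups did not overlap for 6 of the 12, each time with the labelled homozygous arrays higher, against 10.1% of all probes in that direction. Lepr ILMN_2736578 and Cxcl12 ILMN_2746295 are among these and were detected on no wild-type array. They passed the filter only through the other groups and had little room to be lower, here and in the counts of differences above 0. Cxcl12 gave more than 1 of these probes. The median difference of the 12 probes was 0.49 and that of all probes -0.16, with 8 of the 12 above 0, against 38.2% of all probes. Under 75th percentile scaling these medians were -0.30 and -0.54, and 4 in place of 8 of the 12 differences were above 0. Of all called probes 22.8% were higher with quantile normalisation, 10.8% with 75th percentile scaling (2536 called) and 86.7% when the percentile was taken over probes detected on every array (15 called).

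Leaving out the array with hepatocyte RNA, which is also the one with the low Mysm1 reading, changed the count more than any other single array. Without it 5 of 11 member probes passed, with Cxcl12 (2 probes), Lepr and Mgp higher and Bglap2 lower, against 31.9% of the 14284 probes then tested. Under 75th percentile scaling without that array 1 of the 11 rose (Lepr) and 5 fell (Bglap2, Vcam1, 2 Sparc probes and Cxcl12 ILMN_2658908), against 58.3% of all probes. With the percentile over probes detected on every array 6 rose and 1 (Bglap2) fell, against 61.9%. Lepr and Bglap2 were thus the members called in the same direction in all 3 scalings once that array was left out. For Lepr this carries little weight, because its probe was detected on no wild-type array. It passed the filter only through the other groups, so a fall was hardly open to it. Without wild-type replicates or the other labelled homozygous arrays, 0 member probes passed in each case. Between the labelled homozygous and heterozygous groups 1 of 12 member probes passed with all arrays, against 0.716% of all probes, and 4 of 11 without that array, against 13.9%. Here 6 of 12 probes had labelled homozygous arrays above all heterozygous ones, against 4.77% of all probes.

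**Figure D2:**
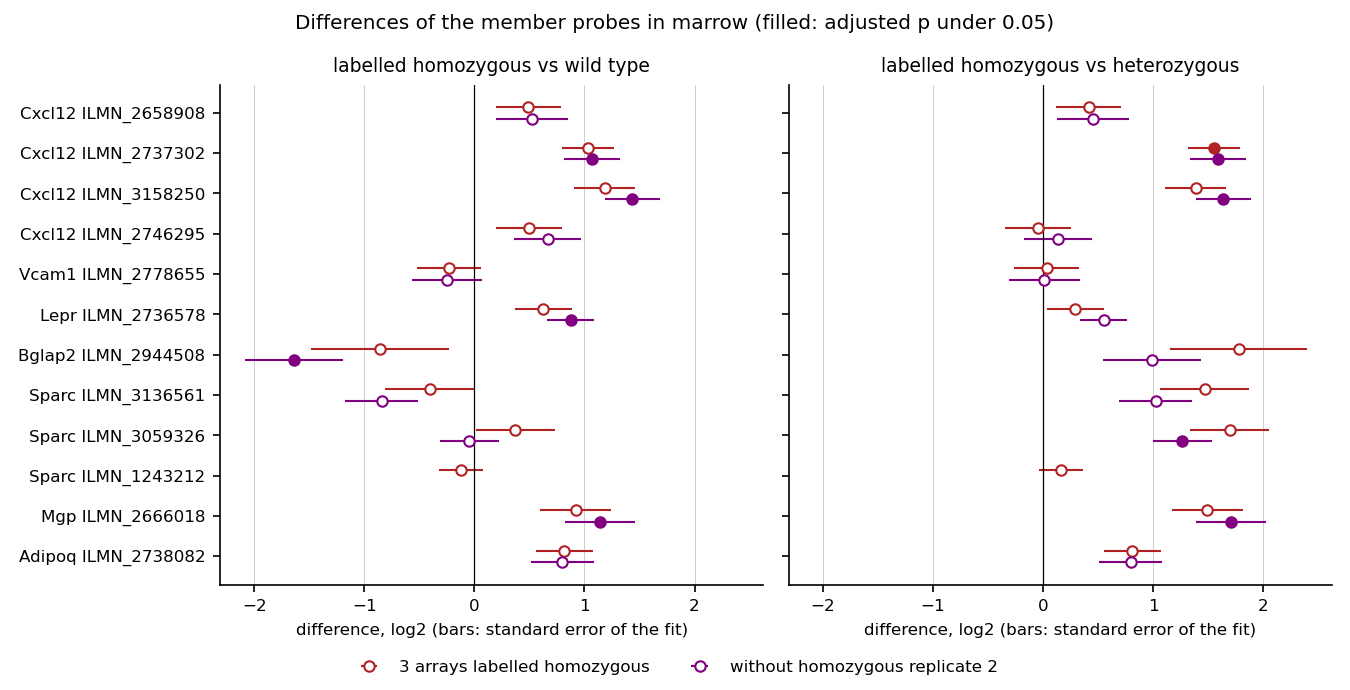
Log2 differences of the 12 tested member probes (x axis, bars are standard errors of the fit) between labelled homozygous and wild-type marrow (left) and heterozygous marrow (right), with all 9 arrays and without the array that carried hepatocyte RNA; filled points have limma adjusted p under 0.05. With all arrays 1 of the 24 points is filled, and without that array 9 of 22 are.

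**Figure D3:**
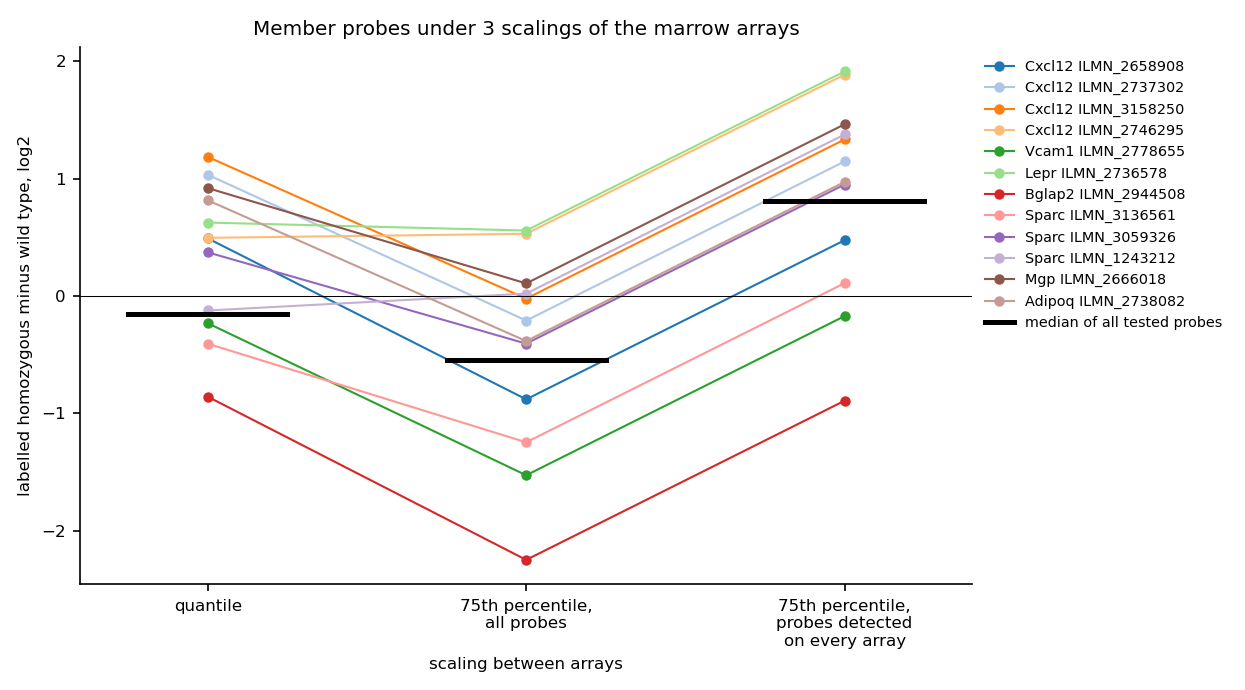
Log2 difference between labelled homozygous and wild-type marrow (y axis) for each tested member probe under 3 ways of scaling the arrays (x axis); black bars are the median of all 15087 tested probes, at -0.16, -0.54 and 0.81. Signs depend on the scaling for Cxcl12, Adipoq and Sparc, while Bglap2, Vcam1 and Sparc ILMN_3136561 lie below the median bar in all 3 scalings. Cxcl12 ILMN_2658908 lies below that bar in both 75th percentile scalings.

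Heterozygous against wild-type marrow called 0 member probes and 0% of all probes (limma), with 4 member probes and 10% of all probes at an unadjusted p under 0.05. The groups did not overlap for 4 of the 12, all with heterozygotes lower (Bglap2, 2 Sparc probes and Cxcl12 ILMN_2737302), against 15.7% of all probes in that direction. The median difference of the members was -0.28, beside -0.06 for all probes. The order of Bglap2 and these 2 Sparc probes was the same in every scaling tried: for Bglap2 the difference was -3.72 with 75th percentile scaling and -2.54 with the percentile over probes detected on every array, and for Sparc ILMN_3136561 it was -2.37 and -1.19. With the array that carried hepatocyte RNA left out of the shared fit, quantile normalisation still called 0 members, while 75th percentile scaling called 6 of 11 lower (Bglap2, Vcam1, 2 Sparc and 2 Cxcl12 probes), against 39.6% of all probes. The percentile over probes detected on every array then called 2 lower (Bglap2 and Sparc ILMN_3136561) and 2 higher (Lepr and Cxcl12 ILMN_2746295), against 33.5%. The 2 called higher were detected on no wild-type array. The comparisons share their groups: wild-type arrays serve as controls for both the heterozygous and the labelled homozygous group.

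Summed over the brightest tested probe of each member, the background-corrected signal was a small share of each array. It was 0.0577%, 0.0793% and 0.0744% in wild type, 0.0327%, 0.0459% and 0.0393% in heterozygotes and 0.0685%, 0.0983% and 0.0494% on the arrays labelled homozygous, with means of 0.0704% ± 0.0113, 0.0393% ± 0.0066 and 0.0720% ± 0.0246 (SD, n = 3). All heterozygous arrays were below all other arrays, and the labelled homozygous arrays overlapped wild type. Without quantile normalisation, as under 75th percentile scaling, labelled homozygous replicate 3 took 0.0285%, below heterozygous replicates 2 and 3 at 0.0353% and 0.0356%. Without the array that carried hepatocyte RNA the labelled homozygous mean was 0.0589%. The bone and matrix members took 0.0366% ± 0.0117 in wild type, 0.0062% ± 0.0035 in heterozygotes and 0.0288% ± 0.0247 under the homozygous label, the last from 0.0129%, 0.0572% and 0.0163%. This sum is linear, so Bglap2, the brightest of them on every array, weighs most in it. Mgp by itself overlapped between wild type and heterozygotes, with all labelled homozygous arrays above both.

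The niche members (Cxcl12, Vcam1 and Lepr) took 0.0304% ± 0.0081, 0.0295% ± 0.0078 and 0.0365% ± 0.0094, with overlap of all groups. Adipoq alone took 0.0035% ± 0.0003, 0.0036% ± 0.0009 and 0.0067% ± 0.0021. The bone and matrix members of the 3 heterozygous arrays read 0.0045%, 0.0038% and 0.0103%, all below the other 6 arrays after quantile normalisation.

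**Figure D4:**
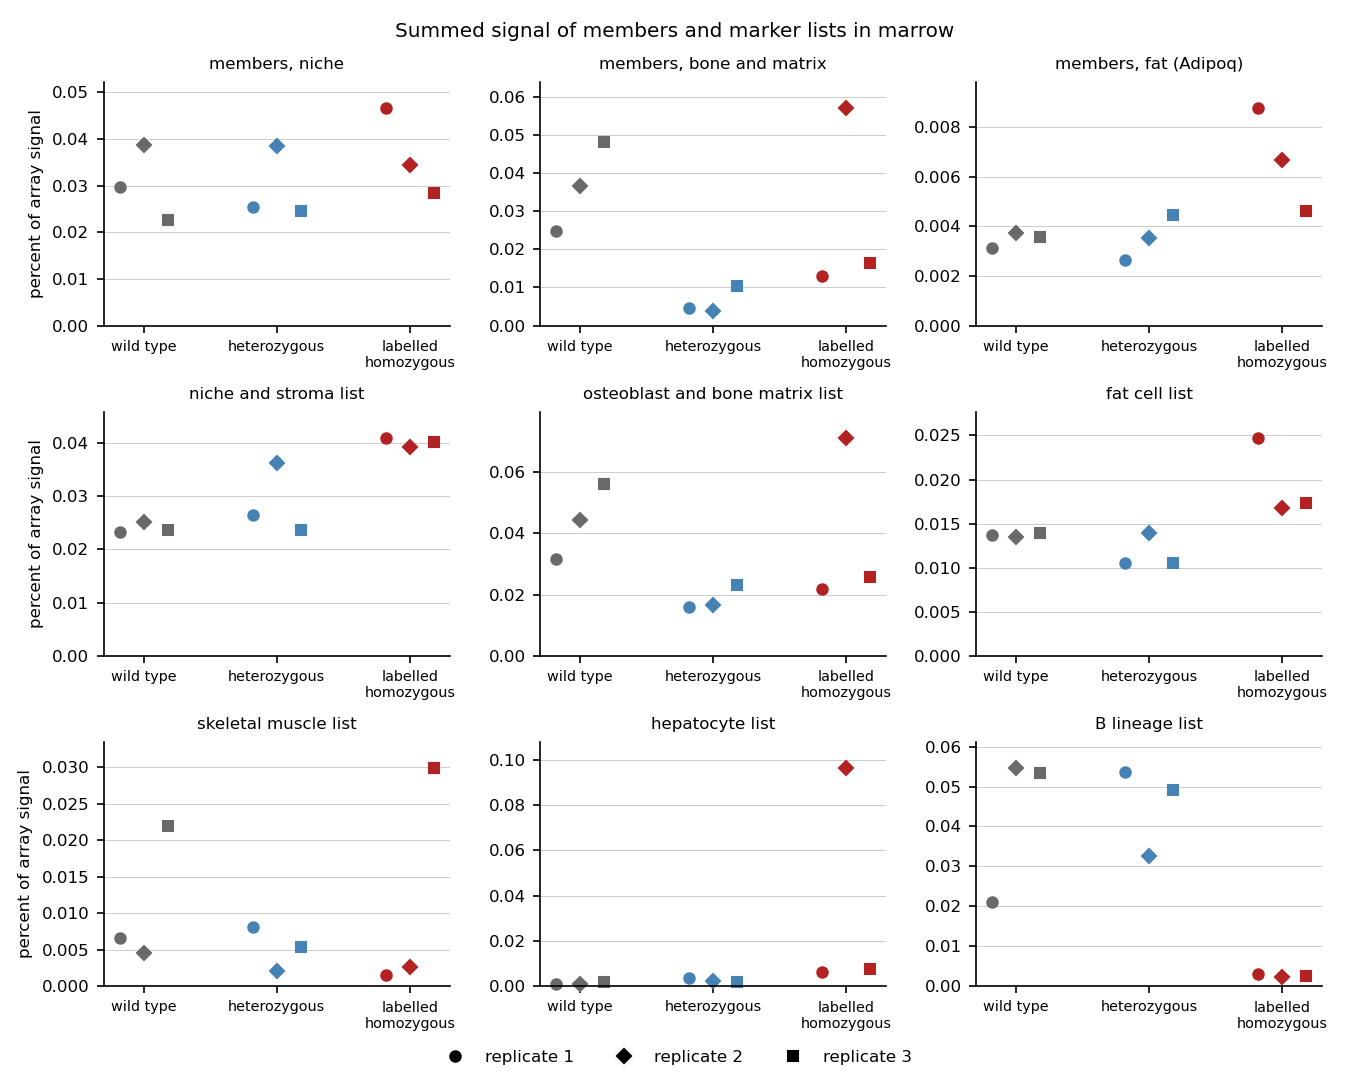
Summed background-corrected signal as a percent of each marrow array's signal (y axis, from 0), by genotype label (x axis), for the members by role and for 6 marker lists; each point is 1 array and symbols mark replicates. Bone and matrix members and the osteoblast list are below all wild-type arrays on the 3 heterozygous arrays. Both are highest on labelled homozygous replicate 2, which alone carries the hepatocyte list at 0.0965%. Bglap2 weighs most in the linear sum of the bone and matrix members.

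Genes that work with the members were read from lists, 1 probe per gene. Of 13 tested genes of osteoblasts and bone matrix, 0 passed in any of the 3 marrow comparisons with all arrays. Bglap, the neighbouring osteocalcin gene, read 8.59, 9.08 and 9.92 in wild type, 6.05, 4.77 and 7.49 in heterozygotes and 7.01, 10.26 and 8.10 on the arrays labelled homozygous, the order of Bglap2. Col1a1, the main collagen chain of bone, read 6.98, 8.14 and 7.92, then 5.05, 4.69 and 5.37, then 4.85, 7.74 and 5.16. On both genes all heterozygous arrays were below all wild-type arrays, with differences of -3.10 ± 0.82 and -2.64 ± 0.64 (limma adjusted p = 0.473 for each), and the 1 high labelled homozygous array was the one with hepatocyte RNA. Without it Col1a1 was 6.37-fold lower on the labelled homozygous arrays than in wild type and passed (limma adjusted p = 0.00148). Of the 13 genes 2 were then called lower (Col1a1 and Serpinf1, the second named after its value was seen) and 2 higher (Ibsp and Mepe), near the 31.9% of all probes called in that fit. The median of the 13 genes was -0.23, beside -0.23 for all probes. On the same arrays Col1a1 fell by 3.22 on the log2 scale under 75th percentile scaling (limma adjusted p = 0.00271).

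Other bone genes did not share this order: Mepe, an osteocyte gene, read 5.51, 5.05 and 5.30 on the arrays labelled homozygous, above wild type at 4.49, 4.34 and 4.81 (0.74 ± 0.23, limma adjusted p = 0.0934, or 0.84 and 0.0198 without the array that carried hepatocyte RNA). Ibsp, bone sialoprotein, split by probe: ILMN_3141106 read 6.83, 6.74 and 7.74 under the homozygous label and 6.14 to 6.41 in wild type (a difference of 0.83, or -0.27 under 75th percentile scaling), while ILMN_2770088 read 5.77, 6.37 and 4.41 against 5.86 to 6.27. The summed share of the list was 0.0315% to 0.0560% in wild type, 0.0160% to 0.0232% in heterozygotes and 0.0217% to 0.0713% on the arrays labelled homozygous. The osteoclast list (4 genes tested, 0 passed) ran from 0.0470% to 0.0544% in wild type, 0.0331% to 0.0419% in heterozygotes and 0.0341% to 0.0544% on the arrays labelled homozygous, with Ctsk, the bone-degrading protease, between 4.95 and 7.00.

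Of 12 tested niche and stroma genes, 0 passed between the labelled homozygous and wild-type groups with all arrays and 4 of 11 rose without the array that carried hepatocyte RNA (Il7, Igfbp4, Cspg4 and Prrx1, the last 2 named after their values were seen), near the 31.9% of all probes called in that fit. Igfbp4, a secreted binder of insulin-like growth factors, read 7.84, 7.99 and 8.11 in wild type and 8.74, 9.37 and 8.90 under the homozygous label, with no overlap (limma adjusted p = 0.0634), but its difference turned from 1.02 to -0.36 under 75th percentile scaling, and to -1.03 (limma adjusted p = 0.0249) without the array that carried hepatocyte RNA. Il7, the stromal cytokine of B-cell precursors, read 4.88, 4.47 and 5.74 in wild type and 7.00, 5.16 and 7.27 under the homozygous label on probe ILMN_1213727. Without that array Il7 rose under quantile normalisation (limma adjusted p = 0.00434) and under 75th percentile scaling (limma adjusted p = 0.0267). The median of the list was 0.39, beside -0.16 for all probes, and its summed share was 0.0233% to 0.0251% in wild type, 0.0236% to 0.0362% in heterozygotes and 0.0392% to 0.0410% under the homozygous label.

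Of 8 tested fat cell genes 0 passed with all arrays, and 7 of the 8 differences were above 0, with a median of 0.46, against 38.2% of all probes above 0. With the array that carried hepatocyte RNA left out 3 of 7 fat genes rose (Plin4, Lep and Acvr1c, the last 2 named after their values were seen), against 31.9% of all probes, and of these Acvr1c passed under 75th percentile scaling as well (limma adjusted p = 0.0105). Plin4, a lipid droplet coat protein, read 4.71, 4.49 and 4.88 in wild type and 6.14, 4.97 and 5.21 under the homozygous label. The summed share of the list was 0.0135% to 0.0139% in wild type, 0.0105% to 0.0139% in heterozygotes and 0.0168% to 0.0247% under the homozygous label, all of these above wild type. Of 9 tested extracellular matrix genes Timp3, an inhibitor of metalloproteinases, rose (2.24-fold, limma adjusted p = 0.036), from 5.87, 6.05 and 5.67 in wild type to 7.10, 6.84 and 7.15, with heterozygotes between at 6.47, 6.58 and 6.10. Under 75th percentile scaling the difference for Timp3 was 0.14 (limma adjusted p = 0.741). Of 7 matrix genes tested without the array that carried hepatocyte RNA, 3 rose (Timp3, Nid1 and Col4a1) and 1 fell (Fn1), against 31.9% of all probes called. All but Timp3 were named after their values were seen. On the same arrays Timp3 stood at -0.15 under 75th percentile scaling and Fn1 at 0.58 with the percentile over probes detected on every array.

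The receptors and partners of the members gave 0 calls among 9 tested genes between the labelled homozygous and wild-type groups. Cxcr4, the receptor of CXCL12 on blood cells, read 7.28, 7.48 and 7.04 in wild type, 7.05, 6.92 and 6.77 in heterozygotes and 6.44, 6.66 and 5.99 on the arrays labelled homozygous. These last lay below all others, and the difference from wild type was -0.90 ± 0.23 (limma adjusted p = 0.0761). Without the array that carried hepatocyte RNA Cxcr4 fell by 1.05 on the log2 scale (limma adjusted p = 0.00821), while Itgav, an integrin chain that binds osteopontin and other matrix proteins, rose 4.16-fold (limma adjusted p = 0.00292). Itga4, a chain of the VCAM1 receptor that was named after its value was seen, rose 2.84-fold (limma adjusted p = 0.00539). Under 75th percentile scaling without that array the calls of Cxcr4, Itgav and Itga4 kept their direction (limma adjusted p = 0.00271, 0.0104 and 0.0125).

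Markers of other cells moved beside the members, and their part in the results was not tested. Of 8 tested B-lineage genes 5 fell on the arrays labelled homozygous, led by Vpreb3 (17.3-fold, limma adjusted p = 0.00265) and Cd79b (11.3-fold, limma adjusted p = 0.00167), and the list's share went from 0.0211% to 0.0547% in wild type to 0.0022% to 0.0030%. Of 8 tested megakaryocyte genes 3 rose (Vwf, Itga2b and Ppbp), none of which passed under 75th percentile scaling (differences of 0.64, 0.78 and 0.46), with shares of 0.0202% to 0.0399% in wild type and 0.0623% to 0.1482% under the homozygous label. With the array that carried hepatocyte RNA left out, 6 of 8 megakaryocyte genes rose and 6 of 8 B-lineage genes fell. The share of all probes called was 31.9% in that fit and 1.13% with every array in. The endothelial list had 4 of 10 genes higher and 2 lower without that array, against the same 31.9% of all probes. With every array in, its share was 0.0124% to 0.0154% in wild type and 0.0258% to 0.0319% under the homozygous label. Its pan-endothelial markers were near background: the 2 Cdh5 probes were detected on 2 arrays and 1 array, and the brightest Pecam1 probe read 5.49 to 5.69 in wild type and 4.86 to 5.51 under the homozygous label.

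Skeletal muscle markers marked single arrays. Acta1 read 7.81 on wild-type replicate 3 and 8.58 on labelled homozygous replicate 3, and at most 5.68 elsewhere, while Ckm was detected on 1 array. Smooth muscle actin (Acta2, ILMN_2693895) read 8.38, 6.19 and 8.59 on the arrays labelled homozygous and 6.06 to 6.73 in wild type. Of 5 skeletal and 4 smooth muscle genes tested 0 passed, as did 0 of 7 erythroid, 14 neutrophil, 10 macrophage and 1 cartilage genes. Among hepatocyte genes 1 of 4 (Cps1) rose, as did 1 of 12 endothelial genes (Vwf, already counted above as a megakaryocyte gene). On probe ILMN_2913078 Cps1 read 7.24, 6.78 and 7.84 on the arrays labelled homozygous, so this probe was not high on the array with hepatocyte RNA alone. The other Cps1 probe, ILMN_1252849, was: it read 4.34, 6.78 and 4.34 there, at most 4.54 on the other marrow arrays, and was detected on 1 array. Once the array with hepatocyte RNA was left out, Acta2 rose and the macrophage gene Adgre1 fell, the latter named after its value was seen (limma adjusted p = 0.00171 and 0.00844). After quantile normalisation the neutrophil list moved with the members although none of its genes passed: 12 of its 14 differences were above 0, against 38.2% of all probes. On the labelled homozygous arrays 6 of 14 genes were higher with no overlap, against 10.1% of all probes in that direction. These counts are given for quantile normalisation alone. Its share was 1.70% to 1.99% in wild type, 1.84% to 2.05% in heterozygotes and 2.25% to 3.12% under the homozygous label.

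Among the tissues, Bglap2, Adipoq and Vcam1 were the members richest in marrow. After normalisation over all 27 arrays, wild-type marrow read 11.79 ± 0.41 (SD, n = 3) for Bglap2, 8.82 ± 0.13 for Adipoq and 10.55 ± 0.45 for Vcam1. Bglap2 stood at least 108-fold above wild-type liver, where no array detected it, and brain read 4.61, with 1 of 3 arrays detected. Adipoq was at least 17.6-fold above brain, and liver read 5.03, with 1 of 3 arrays detected. Vcam1 was 9.72-fold above liver and 5.88-fold above brain. All 6 of these differences passed (the largest limma adjusted p was 7.9e-10).

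Cxcl12 ordered the tissues otherwise: ILMN_2737302 and ILMN_3158250 were lower in wild-type marrow than in liver (1.64-fold and 1.84-fold, limma adjusted p = 0.00263 and 0.00119) and 5.30-fold and 3.17-fold above brain. Mgp and 2 Sparc probes were lower in wild-type marrow than in brain, Mgp reading 7.11 in marrow, 7.19 in liver and 8.81 in brain. In all, 6 of 13 member probes differed between wild-type marrow and liver, against 44.6% of the 25195 probes tested, and 9 of 13 between marrow and brain, against 54.5%. Wild-type samples of each tissue lay on a different BeadChip, which cannot be told apart from tissue.

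**Figure D5:**
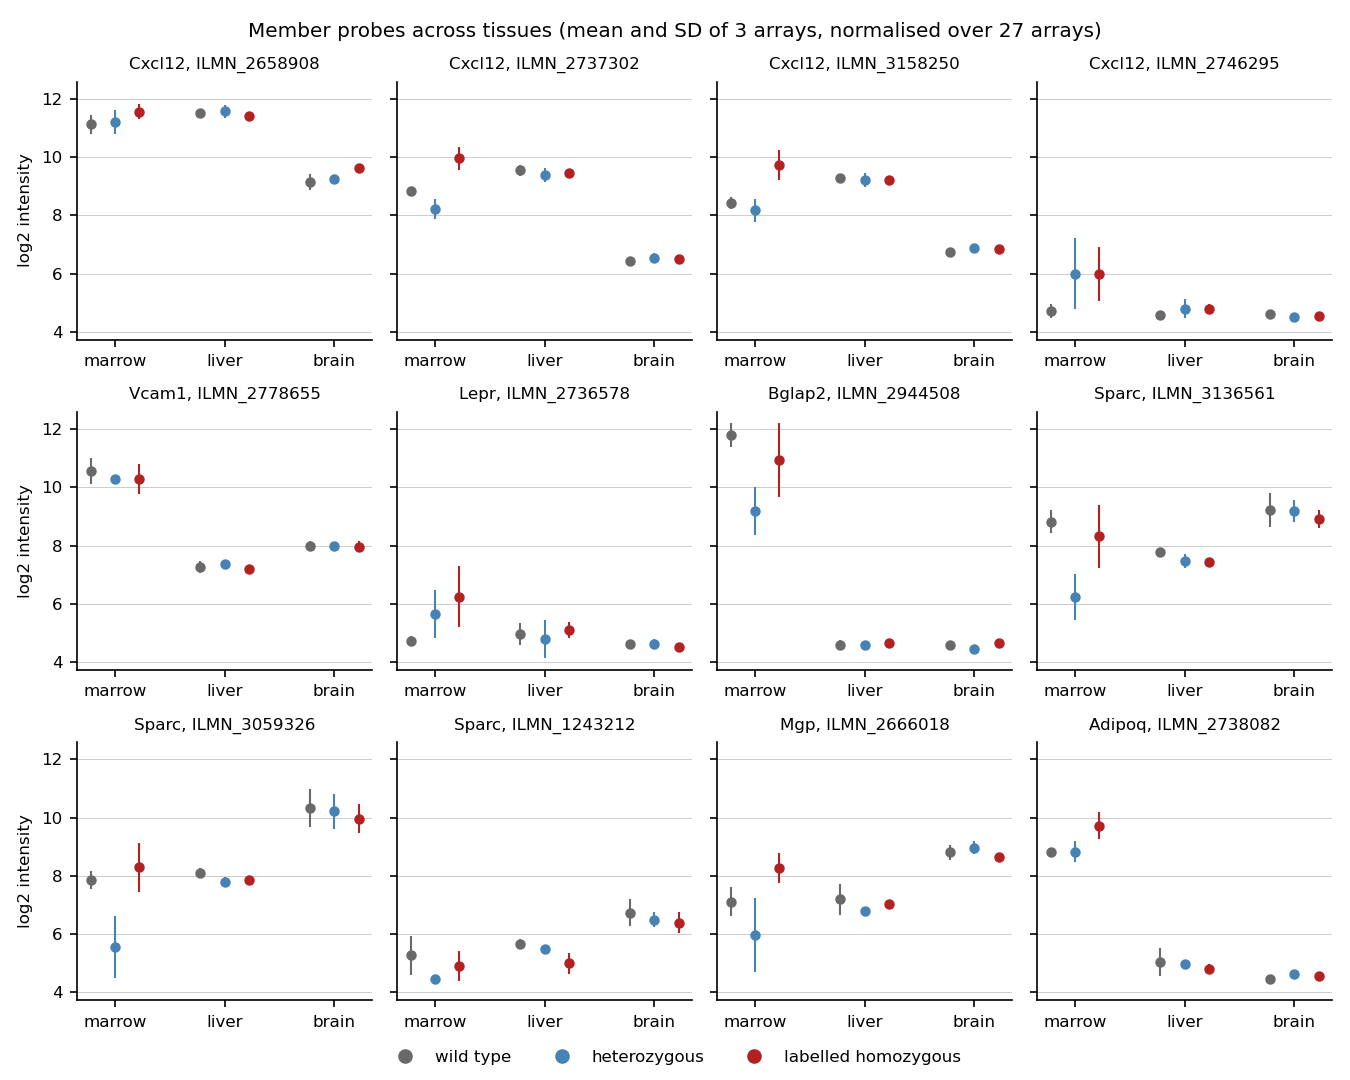
Mean log2 intensity (y axis) with SD over 3 arrays for the 12 member probes tested in marrow, in marrow, liver and brain (x axis) of each genotype label, after normalisation over all 27 arrays. Bglap2 and Adipoq are high in marrow alone, and the 3 brighter Cxcl12 probes are lower in brain than in liver and marrow.

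In liver and brain, where Mysm1 followed the labels, the members did not pass the test in any genotype comparison. Homozygous and wild-type arrays lay on different BeadChips in these tissues too, so BeadChip and genotype cannot be told apart in that comparison. Of the 9 member probes (5 genes) tested in each, 0 passed, against 1.26%, 0% and 0.505% of all liver probes (homozygous against wild type, heterozygous against wild type, homozygous against heterozygous) and 0.00959%, 0% and 0.00959% of all brain probes. The differences between homozygotes and wild type ran from -0.54 to 0.10 in liver and from -0.35 to 0.43 in brain, and 2 and 1 of them had an unadjusted p under 0.05, against 16.8% and 5.1% of all probes. In a fit over all 27 arrays the labelled homozygous effect on Cxcl12 ILMN_3158250 was larger in marrow than in liver by 1.38 ± 0.29 (limma adjusted p = 0.00466) and than in brain by 1.23 ± 0.29 (limma adjusted p = 0.012), and both turned to -0.08 under 75th percentile scaling.

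The members did not vary as 1 block across the 9 marrow arrays. On the brightest probe of each gene, Bglap2 and Sparc had the highest correlation of the 21 pairs (Pearson r = 0.88, Spearman rho 0.88), Adipoq and Mgp stood at 0.71 and Adipoq and Cxcl12 at 0.66, while Bglap2 and Cxcl12 stood at -0.18 and Bglap2 and Lepr at -0.57. These values describe 9 arrays in 3 groups that share normalisation and differ in depth. Within genotype the order of pairs changed: Cxcl12 and Vcam1 were highest at 0.77, Sparc and Adipoq stood at 0.65, Bglap2 and Sparc at 0.63 and Mgp and Adipoq at 0.19, while Lepr stood at -0.88 with Bglap2 and -0.73 with Sparc. By the same measure over the same arrays, the named gene nearest to Cxcl12 ILMN_2658908 was the chemokine gene Cxcl14 (r = 0.96), followed by the endothelial gene Esm1 (0.92). Nearest to Bglap2 were Mterf4 (0.99) and Bglap (0.98), to Adipoq Acat3 (0.96) and Smtn (0.96), and to Mgp Slc35a2 (0.95) and Gas2l1 (0.94).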

How the data were processed

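The authors deposited, per the file headers, a probe signal intensity for each of 27 arrays with a detection p-value, a bead number and a bead standard error, and a processed table of intensity values. The deposited bead numbers (medians of 43 to 45 per array) and bead standard errors were used to describe precision. The authors' detection p-value was used to filter and to remove background. The submitters' processing notes name BeadStudio and limma, with no version. The deposited processed intensity table matched a quantile normalisation of the raw signals over 27 arrays to within 2.29% and served as an alternative.

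From the raw signals, neqc of limma 3.58.1 (R 4.3.3) removed background by means of the detection p-values, added an offset of 16, made the quantiles of the 9 arrays of a tissue equal and took log2. Probes with detection p under 0.05 on at least 3 arrays were fitted with lmFit and eBayes over the 3 genotypes, and Benjamini-Hochberg adjustment covered all tested probes (threshold 0.05). Tissue contrasts used 1 normalisation and fit over 27 arrays. Shares are background-corrected linear signals over the array's sum. The number of arrays limits the precision, and the p-values measure the spread between these samples. The fit was tested on simulated data with 200 changed genes.

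Genes come from GEO's platform annotation, in which 34885 probes have 1 symbol, 18 several and 10378 none, with 34807 matched to RefSeq. Named genes are all member probes, Mysm1, up to 3 passing genes of each list or else the 2 with the smallest p, fixed markers of other cells, and for each member the 2 genes with the nearest pattern. Members and lists were chosen with earlier results of these data known. Alternatives covered background, scaling, filter, weights, pooling of groups, the replicate block and each array left out. Scaling without homozygous replicate 2 was added after seeing the data.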

Additional observations from a re-analysis of the deposited data

Results flagged for a closer look

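For 3 member probes the difference between labelled homozygous and wild-type samples was not the same in marrow as in another tissue, by the interaction term of a limma fit over 27 arrays. For Cxcl12 ILMN_2737302 the marrow effect exceeded that in liver by 1.22 ± 0.26 (log2, SE, limma adjusted p = 0.00448) and that in brain by 1.05 ± 0.26 (limma adjusted p = 0.0143). For Cxcl12 ILMN_3158250 the excess was 1.38 ± 0.29 over liver (limma adjusted p = 0.00466) and 1.23 ± 0.29 over brain (limma adjusted p = 0.012). For Adipoq it was 1.13 ± 0.31 over liver (limma adjusted p = 0.0215). These are 3 of 13 member probes against liver, beside 14.3% of all probes, and 2 of 13 against brain, beside 10.1%. Leaving out 1 array at a time gave 0.84 to 1.65, and the Adipoq term then missed the threshold without liver wild-type replicate 1, liver homozygous replicate 1, marrow wild-type replicate 1 or marrow homozygous replicate 1 (limma adjusted p = 0.0619, 0.0563, 0.0524 and 0.0517), and all 5 turned below 0 under 75th percentile scaling. The marrow arrays labelled homozygous lie on a BeadChip of their own, and homozygous and wild-type arrays also lie on different BeadChips in liver and brain. BeadChip cannot be told apart from genotype in these terms.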

How the results depend on the processing

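The calls in marrow depended on the processing, and the cause was not tested. Counts below are given for labelled homozygous against wild type, then heterozygous against wild type, then labelled homozygous against heterozygous. A fit over 27 arrays called 7772, 3361 and 3939 probes (members 6, 5 and 7), and array weights 9380, 1863 and 3436 (members 9, 4 and 6). Fitting only the 2 groups compared called 36, 191 and 34 (members 0, 3 and 0). Under 75th percentile scaling the first and last counts were 2536 and 0, with the percentile over probes detected on every array (chosen after seeing the data) 15 and 0, and no member passed in the last comparison under either, with 1 probe per gene, or with quantile normalisation over 27 arrays (56 probes called). Probes detected on every array gave 78 calls in the first comparison and 2 members in the last. Without background correction, and with offset 50, 1 and 2 members passed in the first and last. Leaving out 1 array gave 21 (without wild-type replicate 3) to 4554 calls (without homozygous replicate 2) and 0 to 5 members in the first, 31 to 1980 calls and 0 to 4 members in the last, 0 in the second, and 2 to 7 and 2 to 6 members in the marrow-minus-liver and marrow-minus-brain terms.

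Signs turned under 75th percentile scaling for the first comparison of Adipoq (-0.38), Cxcl12 ILMN_3158250 (-0.0217), ILMN_2737302 (-0.21) and ILMN_2658908 (-0.88), and Sparc ILMN_1243212 (0.0209) and ILMN_3059326 (-0.41), for the second of Adipoq (-0.97) and Cxcl12 ILMN_2658908 (-1.13), for the last of Vcam1 (-0.0758), and for the tissue terms of Cxcl12 ILMN_2737302 (-0.28 brain, -0.24 liver), Adipoq (-0.17) and Cxcl12 ILMN_3158250 (-0.0792 brain, -0.0778 liver). With the percentile over probes detected on every array they turned for Sparc ILMN_1243212 (1.38) and ILMN_3136561 (0.11) in the first, Cxcl12 ILMN_3158250 (0.10), Mgp (0.40) and Sparc ILMN_1243212 (1.04) in the second and Cxcl12 ILMN_2746295 (0.0863) in the last. With labelled homozygous replicates 1 and 3 alone (chosen after seeing the data), 75th percentile scaling called 8323, 5656 and 0 probes (members 6, 6 and 0), and turned Adipoq (-0.82), Cxcl12 ILMN_2658908 (-1.33), ILMN_2737302 (-0.61) and ILMN_3158250 (-0.22), Mgp (-0.00229) and Sparc ILMN_3059326 (-1.09) in the first, Adipoq (-0.97) and Cxcl12 ILMN_2658908 (-1.13) in the second, and Cxcl12 ILMN_2658908 (-0.21), ILMN_2746295 (0.0363) and Vcam1 (-0.53) in the last. On the same arrays the percentile over probes detected on every array called 8846, 4791 and 0 (members 7, 4 and 0) and turned Cxcl12 ILMN_3158250 (0.10) and Mgp (0.40) in the second and Cxcl12 ILMN_2746295 (0.66) in the last. Array weights turned Vcam1 (0.0488) and, in the second, Cxcl12 ILMN_2658908 (-0.00117). Leaving out 1 array turned, in the first, Sparc ILMN_3059326 (range -0.0462 to 0.60), Sparc ILMN_3136561 (-0.84 to 0.0548) and Vcam1 (-0.47 to 0.0222), in the second Adipoq (-0.15 to 0.17) and Cxcl12 ILMN_2658908 (-0.20 to 0.28), and in the last Cxcl12 ILMN_2746295 (-0.32 to 0.13) and Vcam1 (-0.20 to 0.29). The members' share became 0.0439%, 0.0280% and 0.0448% without background correction, and 0.0322% in heterozygotes under 75th percentile scaling. Of the other summary results, 243 stayed near their main value, while 35 counts were clearly larger and 29 clearly smaller. Of the other single-probe results, 648 kept their direction and side of the threshold. A further 74 passed where the main fit did not, and 14 no longer passed.

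Same-numbered marrow samples mostly did not deviate together (correlations of -0.48 to 0.42, 2 of 9 over 0.1). The 2 were labelled homozygous with wild type, at 0.42 for replicate 2 and 0.32 for replicate 3. With 3 arrays per group these values cannot settle whether the numbers pair samples, and the main fit treated them as unpaired. The replicate block called 53 probes in the first comparison and 55 in the last. Dim probes (Kitl, Lepr, Sparc ILMN_1243212) are limited by signal over background.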
